A study of Homo sapiens with 9 samples.

Results

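PTHLH and CPA4, which encode secreted products, were followed as 2 of the 23727 genes counted in LN229 cells, a human glioblastoma line, during exposure to formate (the source labels spell the line LN299; the growth protocol and the design text name LN229). Both were picked from the raw counts because they fell strongly after 24 h, so their levels at 24 h are given as a description and carry no test. Formate, the anion of formic acid, is a carrier of 1-carbon units in folate metabolism. Stranded mRNA libraries were sequenced from 3 groups of 3 libraries: untreated cells at 0 h, cells given 500 µM Na-formate for 8 h, and cells given it for 24 h. All 3 groups were grown in the same glucose- and glutamine-supplemented DMEM with fetal bovine serum, and the labels name no other agent and no genetic change. The titles number the replicates 1 to 3 in every group but do not say whether they were separate cultures. A p-value therefore sets a difference against the spread between these samples, which may be technical. Formate and time in culture cannot be told apart, since all untreated libraries were taken at 0 h.

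PTHLH encodes parathyroid hormone-related protein (PTHrP), which is cut from a precursor, secreted, and acts on nearby cells through PTH1R, the receptor it shares with parathyroid hormone. PTH1R couples to G proteins that raise cyclic AMP or activate phospholipase C. PTHrP keeps growth-plate cartilage cells proliferating during development, and its release by tumours is known for raising blood calcium and driving bone resorption. CPA4 encodes carboxypeptidase A4, a secreted zinc enzyme of the M14 family. M14 carboxypeptidases of the A type remove hydrophobic residues from the C-terminus of peptides, and latexin and RARRES1 are their known or proposed inhibitors in tissues.

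On GENCODE release 29 and GRCh38, PTHLH (ENSG00000087494) spans chr12:27958084-27972705 on the minus strand, 14622 bases with 3377 bases of exon in 7 blocks. Its 9 annotated transcripts have 9 different starts, and the counts are given per gene, so transcripts could not be separated. An antisense gene, AC008011.2 (ENSG00000257042), overlaps 10.5% of the exon bases of PTHLH. It had at most 5 counts in any library, against 77 to 1017 for PTHLH. CPA4 (ENSG00000128510) spans chr7:130293134-130324180 on the plus strand, 31047 bases with 3958 bases of exon in 13 blocks, and no gene on the other strand overlaps its exons. It has 12 annotated transcripts with 5 different starts.

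The sequence directly before CPA4 is shown because the levels of both genes moved together, as described below. The windows searched at their RefSeq starts also differ in the short motifs they hold. The printed bases are chr7:130292911-130293133 of GRCh38.p14, plus strand, from RefSeq, the part of a promoter window (250 bases before to 50 after the RefSeq start) that lies before the first annotated exon. Capitals mark a TEAD motif (CATTCC, here as its reverse complement GGAATG) that begins 134 bases before the start, and an AP-1 motif (TGANTCA, here TGAGTCA) that begins 48 bases before it.
CPA4 upstream: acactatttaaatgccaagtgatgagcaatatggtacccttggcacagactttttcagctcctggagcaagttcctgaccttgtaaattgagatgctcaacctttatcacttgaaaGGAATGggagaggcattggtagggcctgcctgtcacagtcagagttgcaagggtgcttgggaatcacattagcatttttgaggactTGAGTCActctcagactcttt
The window of CPA4 held another AP-1 match, TGACTCA, 15 bases before the start, and TATAAA matches at 30 bases (reverse complement) and 28 bases before it that overlap each other. Both strands of the 300-base windows of 35116 promoters were searched for 8 motifs. The AP-1 motif was present in 7.71% of them, the TEAD motif in 14.03% and TATAAA in 11.5%. The window of PTHLH, chr12:27969927-27970226, lies wholly in exons of annotated transcripts and is therefore not printed. It held none of these 3 motifs. It held 3 matches to the SP1 GC box GGGCGG (in 45.0% of promoters), 2 overlapping ETS matches to CCGGAA (17.2%) and a single SMAD match to CAGACA (16.9%), and none of these was found in the window of CPA4. Neither window held the E-box CACGTG (7.26%) or the CRE half-site TGACG (24.6%). GC content was 60.3% in the window of PTHLH and 46.3% in that of CPA4. A match is a stretch of letters, not a measured binding site. A single window was searched for each gene. Annotated starts outside it, among the 9 of PTHLH and the 5 of CPA4, were not covered.

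Depth ran from 22222298 to 25848242 counts a library, and a level of 0.135 CPM equals 3 counts in the smallest library (CPM are counts brought to one library size, with TMM factors). The labelled cell type was checked on 10 glioma and astroglial markers. VIM (mean 4903 CPM at 0 h) and 8 other markers were measured above the filter on low counts, while GFAP, the classical astrocyte filament, had at most 10 counts in any library. CDKN2A, a gene deleted in this line, had at most 1 count. Epithelial markers summed to at most 0.136 CPM and immune markers to at most 0.525 CPM. In the first principal component of the 500 most variable genes, with PTHLH and CPA4 left out (70.5% of the variance), replicate 1 lay apart from replicates 2 and 3 at 0 h and 8 h: its scores were -23.4 and -21.5, against -0.695 to -3.34 for the other 4, and the 24 h libraries had scores of 9.50, 19.9 and 24.8.

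PTHLH was expressed at a moderate level that was similar at 0 h and 8 h and low at 24 h. At 0 h the CPM values were 47.1, 13.7 and 19.0 in replicates 1, 2 and 3, from 999, 357 and 430 counts. At 8 h they were 46.2, 15.3 and 22.1 CPM, from 1017, 350 and 519 counts. At 24 h they were 6.39, 3.97 and 3.19 CPM, from 151, 92 and 77 counts. Replicate 1 was the highest library in each group, and the highest library of 24 h lay below the lowest of 0 h and of 8 h. Group means were 26.6 ± 17.9 CPM (SD, n = 3) at 0 h, 27.9 ± 16.2 at 8 h and 4.52 ± 1.67 at 24 h. The fitted log2 fold change was -2.55 with a standard error (SE) of 0.52 for 24 h against 0 h, which is 5.87-fold lower, and -2.62 (SE 0.52) for 24 h against 8 h. In bulk RNA, fewer cells making a transcript and less of it per cell cannot be told apart.

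CPA4 had the same order of groups at a lower level. At 0 h its values were 25.8, 11.1 and 13.5 CPM in replicates 1, 2 and 3, from 548, 288 and 306 counts. At 8 h they were 30.2, 11.4 and 13.0 CPM, from 666, 260 and 305 counts. At 24 h they were 6.60, 3.41 and 1.45 CPM, from 156, 79 and 35 counts. Again replicate 1 was highest in every group, and the 24 h libraries did not overlap those of 0 h or 8 h. The means were 16.8 ± 7.90 CPM (SD, n = 3) at 0 h, 18.2 ± 10.5 at 8 h and 3.82 ± 2.60 at 24 h. The fitted log2 fold change was -2.13 (SE 0.52), 4.39-fold lower, for 24 h against 0 h, and -2.25 (SE 0.52) for 24 h against 8 h.

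**Figure D1:**
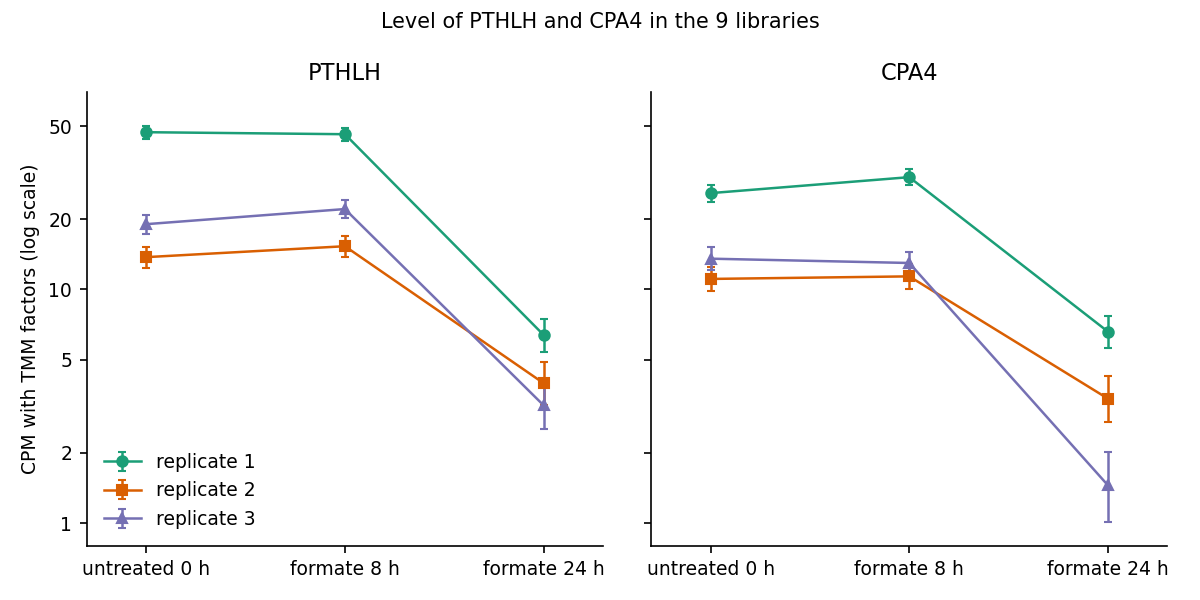
CPM (log axis) of PTHLH and CPA4 in each of the 9 libraries by group, with lines joining same-numbered replicates and bars giving the exact 95% Poisson interval of the count, which covers counting error only. Levels at 0 h and 8 h are alike within each replicate number, and the 24 h points lie at or below 6.39 CPM for PTHLH and 6.60 for CPA4, while the other points lie at or above 13.7 and 11.1.

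As background for the fall that chose them, 649 of 15273 tested genes (4.25%) passed at 24 h against 0 h in edgeR's quasi-likelihood test after Benjamini-Hochberg adjustment, 378 (2.47%) as higher and 271 (1.77%) as lower. Leaving out either replicate 2 or replicate 3 of 24 h brought this count to 0, with 2550 and 2563 genes at an unadjusted p below 0.05, so every call named below for this test is lost without either library. A fitted fall of over 4-fold was found for 16 genes (0.105%), PTHLH and CPA4 among them. The groups did not overlap, with 24 h lower, for 2200 genes (14.4%). At 24 h against 8 h, 696 genes (4.56%) passed, 24 (0.157%) fell by over 4-fold, and 2468 (16.2%) did not overlap with 24 h lower. The comparisons of 8 h and of 24 h with 0 h share the untreated libraries.

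The comparison of 8 h with 0 h asked whether the fall had begun by 8 h. The libraries of 8 h played no part in the choice of the 2 genes, but the untreated ones did. PTHLH had a log2 fold change of 0.07 (SE 0.46) and CPA4 of 0.12 (SE 0.47), and neither passed the same edgeR test, Benjamini-Hochberg adjusted (adjusted p = 0.9999 for both). With the replicate number as a block the values were 0.11 (SE 0.15) for PTHLH and 0.07 (SE 0.18) for CPA4 (adjusted p = 0.999 for both). That test passed 0 of 15273 genes (0%) at 8 h against 0 h, with and without the block. At an unadjusted p under 0.05 there were 79 genes (0.517%), 155 with the block and 37 by DESeq2, which also gave 0 adjusted calls. The libraries of 0 h and 8 h overlapped for both genes, whereas they did not for 506 genes (3.31%).

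The same-numbered libraries showed the course replicate by replicate. From 0 h to 8 h the log2 change of PTHLH was -0.03, 0.16 and 0.21 in replicates 1, 2 and 3, and that of CPA4 was 0.23, 0.04 and -0.06. From 0 h to 24 h the log2 change of PTHLH was -2.88, -1.79 and -2.58, which left 13.6%, 28.9% and 16.8% of the starting level. For CPA4 it was -1.97, -1.70 and -3.22, which left 25.5%, 30.7% and 10.7%. The changes to 8 h had a mean of 0.11 ± 0.13 (SD, n = 3) for PTHLH and 0.07 ± 0.15 for CPA4, and the changes to 24 h had means of -2.42 ± 0.56 and -2.30 ± 0.81. With libraries matched by number, replicate 2 fell least in both genes. The deepest fall was in replicate 1 for PTHLH (7.38-fold) and in replicate 3 for CPA4 (9.33-fold). This matching is uncertain for replicates 2 and 3. Across genes, untreated replicate 3 deviated from its group mean more like replicate 2 of 24 h (r = 0.270) than like replicate 3 (0.251). The separate falls of replicates 2 and 3, the SDs of the changes to 24 h and the errors with the block rest on it. The block model, which compares within numbers, gave -2.45 (SE 0.18) for PTHLH and -2.19 (SE 0.21) for CPA4 at 24 h against 0 h, so the estimates moved little while their errors were much smaller than without it.

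Replicate 1 stood above the others in every group. Its level of PTHLH was 2.87, 2.47 and 1.78 times the mean of replicates 2 and 3 at 0 h, 8 h and 24 h, and its level of CPA4 was 2.10, 2.48 and 2.72 times that mean. RLE scaling, DESeq2 and the fit with no filter gave -2.56 to -2.55 for PTHLH and -2.14 to -2.13 for CPA4 at 24 h against 0 h. Leaving out untreated replicate 1 gave the smallest falls at 24 h against 0 h, with log2 fold changes of -1.87 (SE 0.41) for PTHLH and -1.71 (SE 0.50) for CPA4. Leaving out replicate 1 of 24 h gave the deepest fall of CPA4, -2.79 (SE 0.57) against 0 h and -2.91 (SE 0.57) against 8 h. With only replicates 2 and 3 of each group, a setting chosen after seeing the data, the falls were -2.19 (SE 0.23) and -2.34 (SE 0.27).

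**Figure D2:**
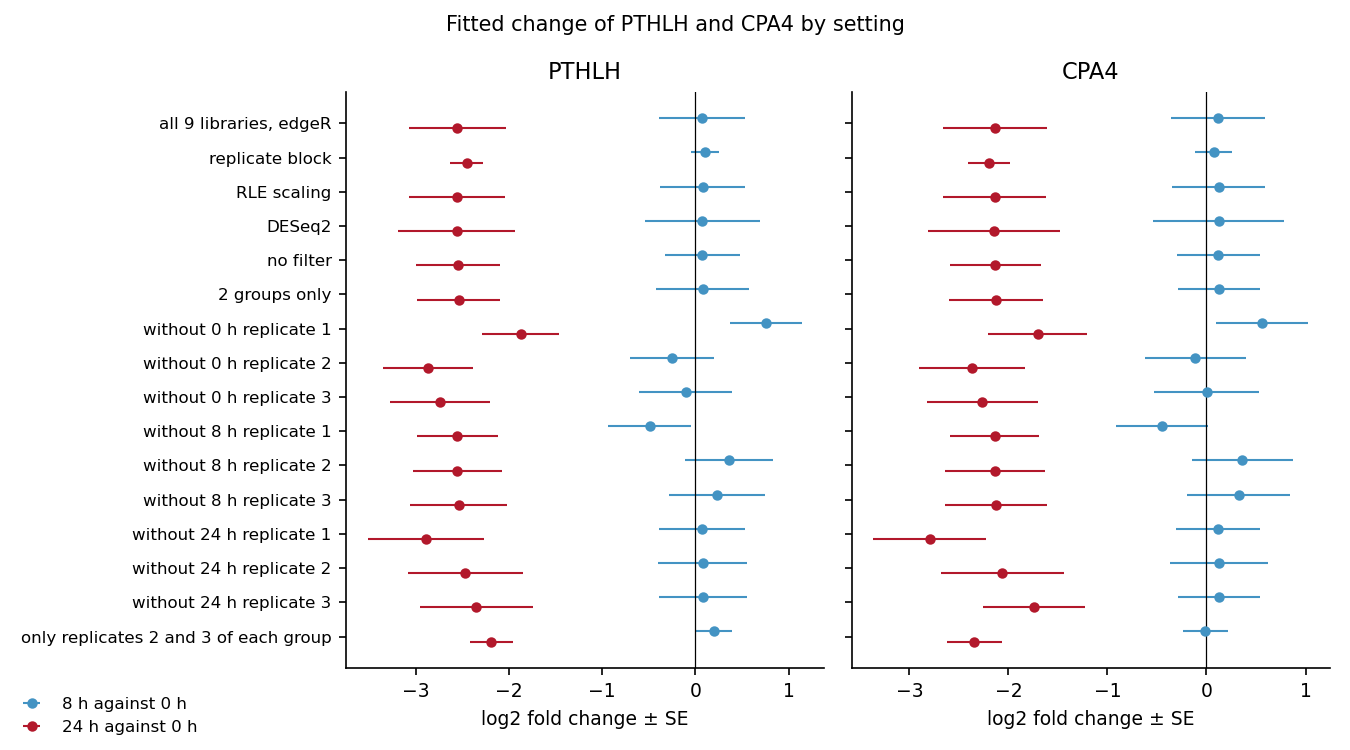
Fitted log2 fold changes with their standard errors (horizontal axis) for PTHLH and CPA4 under each setting (vertical axis), with 8 h against 0 h in blue and 24 h against 0 h in red. The 24 h values run from -2.89 to -1.87 for PTHLH and from -2.79 to -1.71 for CPA4, while the 8 h values lie on both sides of 0 when single libraries are left out.

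Per kilobase of exon, which allows a comparison between genes, PTHLH stood at 7.88 ± 5.31 CPM per kb (SD, n = 3) at 0 h, 8.25 ± 4.80 at 8 h and 1.34 ± 0.493 at 24 h. CPA4 stood at 4.25 ± 2.00, 4.60 ± 2.64 and 0.965 ± 0.656 CPM per kb. In the ranking of 15158 tested genes by this level, 63.5% lay below PTHLH at 0 h and 27.0% at 24 h, and 48.9% lay below CPA4 at 0 h and 22.5% at 24 h. PTHLH exceeded CPA4 per kilobase in all 9 libraries. The ratio was 2.14, 1.45 and 1.65 at 0 h in replicates 1, 2 and 3, then 1.79, 1.58 and 1.99 at 8 h, and 1.13, 1.36 and 2.58 at 24 h. The ratios of 24 h took in the lowest and the highest of the 9.

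**Figure D3:**
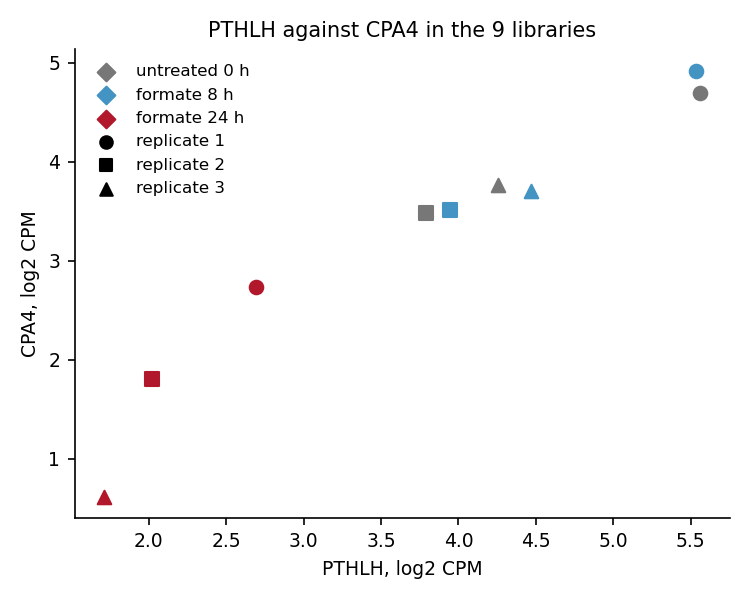
Log2 CPM of CPA4 (vertical axis) against that of PTHLH (horizontal axis) in the 9 libraries, with colour for the group and shape for the replicate number. Replicate 1 of 0 h and of 8 h sits at the upper right, the other 4 libraries of those groups lie together below it, and the 3 libraries of 24 h lie at the lower left.

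The levels of the 2 genes ran in parallel over the libraries. Both genes set the 24 h libraries apart from those of 0 h and 8 h, which overlapped. That separation follows from the choice of both genes for their fall at 24 h. The shared fall also enters the values over 9 libraries, the ranks and the r with the first principal component given below. Pearson's r of log2 CPM was 0.968 and Spearman's rho 0.967 over 9 libraries. Pearson's r was 0.977 over the 6 libraries of 0 h and 8 h, and 0.883 for deviations from the group means. Without the 2 libraries farthest from the median of PTHLH, replicates 2 and 3 of 24 h, it was 0.983. Replicate 1 of 0 h and of 8 h, high in both genes, stayed in each of these values. High values were common in these libraries: over all tested genes, r with PTHLH ran from -0.92 at the 5th percentile to 0.91 at the 95th. CPA4 was the 129th of 10839 genes in likeness to PTHLH, and PTHLH was the 120th in likeness to CPA4. Both followed the first principal component, with r of -0.983 for PTHLH and -0.968 for CPA4.

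The genes most like PTHLH were PIK3CD, a catalytic subunit of phosphoinositide 3-kinase (r = 0.994), CLCF1, a secreted cytokine of the IL-6 family (0.994), AMIGO2, a cell adhesion protein (0.993), OPA3, a mitochondrial protein (0.991), and FAM83G (0.990), each over 9 libraries. CLCF1 had means of 26.1, 25.5 and 9.11 CPM at 0 h, 8 h and 24 h, and its order of libraries was the same as that of PTHLH (rho = 1.0). PIK3CD had means of 28.3, 29.5 and 13.2 CPM, and OPA3 had 56.7, 56.4 and 42.9 CPM, so the likeness was one of pattern and not of size. The genes most like CPA4 were NRG1, which encodes the ERBB ligand neuregulin 1 (r = 0.996), ABCB9 (0.995), CDCA2 (0.995) and CDCA8 (0.991), which encode mitotic proteins, and the sugar-phosphate carrier SLC37A2 (0.992). NRG1 had means of 36.9, 42.1 and 13.3 CPM and ordered the libraries as CPA4 did (rho = 1.0). CDCA8 had means of 184, 186 and 126 CPM.

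PTH1R, the receptor of PTHrP, had at most 4 counts in any library and means of 0.0904 CPM at 0 h and 0.0840 CPM at 24 h, below the level of 3 counts, and it was not tested. PTH, PTH2 and PTH2R were not among the genes analysed here. Downstream of the receptor, 31 of 33 listed genes of G protein, cyclic AMP and phospholipase C signalling were measured and 30 tested. None passed at 24 h against 0 h by edgeR, 8 had an unadjusted p under 0.05 (26.4% of all genes did), and DESeq2 called 2, ADCY9 and ARRB1, as higher. Their median log2 fold change was 0.10, against 0.01 over all tested genes. The most abundant were GNAS, which encodes the stimulatory G protein subunit (938 ± 79.0 CPM at 0 h, 966 ± 44.0 at 24 h, SD, n = 3), PRKAR1A, a regulatory subunit of protein kinase A (415 ± 76.9 and 494 ± 38.7), and GNA12, another G protein subunit (134 ± 8.31 and 124 ± 9.38). With the replicate block, under which 24.1% of all genes passed, 6 of the 30 passed: ADCY9, an adenylyl cyclase, GNAQ, PRKAR1A, the arrestin gene ARRB1 and the histone deacetylase gene HDAC5 rose, and GNA11 fell. These 6, and the genes named below for a call with the block, were picked out after their values were seen.

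Among the enzymes that cut and finish peptide precursors such as that of PTHrP, 6 of 9 were tested and none passed without the block by edgeR or DESeq2, while 4 had an unadjusted p under 0.05 (26.4% of all genes did), and the median log2 fold change was 0.29. PAM, which amidates peptide ends, had 496 ± 55.6 CPM at 0 h and 601 ± 34.1 at 24 h (SD, n = 3). FURIN, the proprotein convertase of the secretory pathway, had 229 ± 9.70 and 198 ± 18.4 CPM, and CPD, which encodes carboxypeptidase D, had 101 ± 20.9 and 128 ± 7.73 CPM. With the block, under which 24.1% of all genes passed, PAM and PCSK5 rose and PCSK7 fell, and other genes overlap 19.7% of the exons of PCSK7 on the opposite strand.

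Of 23 listed regulators of PTHLH, which include TGF-beta ligands and receptors, SMAD, GLI, ETS and SP1 factors, the vitamin D receptor and YAP and TEAD factors, 22 were tested. GLI3, a transcription factor of the Hedgehog pathway, passed. It had 49.2, 66.7 and 68.5 CPM at 0 h, 69.6, 72.3 and 59.9 at 8 h, and 90.0, 91.2 and 83.6 at 24 h, so the 24 h libraries lay above all the others. Its log2 fold change at 24 h against 0 h was 0.52 (SE 0.13, edgeR adjusted p = 0.0469). The call was lost with any 1 of the 9 libraries left out (log2 fold change 0.37 to 0.60, adjusted p 0.0526 to 0.188). The median over the list was 0.15. GLI3 was the 1 of 22 (4.55%) that passed, near the 4.25% of all genes. An unadjusted p under 0.05 was found for 6 of the 22 (26.4% of all genes had one), and DESeq2 called GLI3 and SP1 as higher. With the block 6 of 22 passed (24.1% of all genes): GLI3, SP1, VDR, WWTR1, which encodes the YAP relative TAZ, and TGFBR2 rose, and ETS1 fell, from 142 ± 11.8 to 107 ± 27.6 CPM (SD, n = 3).

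Among other secreted factors that act on bone, a cytokine gene fell. IL11, which encodes interleukin-11, had 71.3, 23.0 and 39.1 CPM at 0 h in replicates 1, 2 and 3. At 8 h it had 63.1, 24.7 and 42.4 CPM, and at 24 h it had 18.1, 9.58 and 9.99 CPM. All 24 h libraries lay below those of 0 h and 8 h, and replicate 1 was the highest of each group, as in PTHLH. The log2 fold change of IL11 was -1.82 (SE 0.43, edgeR adjusted p = 0.0394) at 24 h against 0 h and -0.03 at 8 h against 0 h (adjusted p = 0.9999). At 24 h against 0 h the fall was -2.18 to -1.32 with 1 library left out, and without untreated replicate 1 or 3, replicate 3 of 8 h, or replicate 2 or 3 of 24 h it did not pass (largest adjusted p 0.183). Of the 13 tested factors, IL11 was the one that passed by edgeR at 24 h against 0 h (7.69%, against 4.25% of all genes). The median log2 fold change was 0.03. Before adjustment, 6 of the 13 had an edgeR p below 0.05, while 26.4% of all genes did. DESeq2 called 3 of the 13, with CSF1 as higher and IL11 and LIF as lower.

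With the block 8 of the 13 secreted factors passed (24.1% of all genes did). IL11, DKK1, an inhibitor of WNT signalling, LIF, a cytokine of the IL-6 family, the chemokine gene CXCL8 and the matricellular factor gene CCN2 fell. IL1A, the macrophage growth factor gene CSF1 and INHBA, which encodes an activin subunit, rose. DKK1 had 98.1, 38.9 and 51.0 CPM at 0 h and 35.8, 17.3 and 12.7 CPM at 24 h in replicates 1, 2 and 3, so each numbered pair was lower at 24 h, with a log2 fold change of -1.51 (SE 0.44) that did not pass without the block (edgeR adjusted p = 0.0687; 0.000111 with it). On the opposite strand, other genes overlap 9.61% of the exons of DKK1, 6.73% of those of LIF, 8.34% of those of CCN2 and 9.45% of those of WWTR1. TNFSF11, which encodes the osteoclast factor RANKL, was not among the genes analysed here, and IL6 did not pass the filter. Over all 4 lists and the receptors, 2 of 71 tested genes (2.82%) passed at 24 h against 0 h, while 4.25% of all genes did. With the block 23 (32.4%) passed, against 24.1% of all genes.

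Of the M14 enzymes related to CPA4, a single one passed without the block, and it rose. Besides CPA4, 11 of 22 listed members were measured and 8 tested. The log2 fold change at 24 h against 0 h was above 0 in 7 of the 8, and the median was 0.32, against 0.01 over all tested genes. Of the 8, 6 had an unadjusted p under 0.05 (26.4% of all genes did). By edgeR 1 of the 8 (12.5%) passed after adjustment, against 4.25% of all genes. Carboxypeptidase M (gene symbol CPM), a membrane-bound enzyme that removes C-terminal basic residues, was the gene that passed. Its levels in replicates 1, 2 and 3 were 26.1, 32.0 and 27.3 CPM units at 0 h, 25.6, 31.8 and 24.5 at 8 h, and 39.1, 44.0 and 47.2 at 24 h. All 24 h libraries lay above the others, with a log2 fold change of 0.61 (SE 0.13, edgeR adjusted p = 0.0312). It was 0.53 to 0.70 with 1 library left out and did not pass without untreated replicate 1 or 3 or replicate 2 or 3 of 24 h (largest adjusted p 0.161). With the block AGBL2, which encodes a cytosolic carboxypeptidase that trims tubulin, also rose, from 0.501 ± 0.0298 to 0.984 ± 0.171 CPM units (SD, n = 3).

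Latexin (LXN) had no count in 8 of the 9 libraries, which allows a level of up to 0.135 CPM units (3 counts in the smallest library), and a single count in the other. RARRES1 was low in every group, with means of 0.431 ± 0.322 at 0 h and 0.644 ± 0.312 at 24 h, and did not pass (log2 fold change 0.58, SE 0.60, edgeR adjusted p = 0.548). Of the carboxypeptidases of other families, 5 of 8 were tested and none passed without the block by edgeR; CPQ had an unadjusted p under 0.05 and was called as higher by DESeq2 and with the block. CTSA, the lysosomal protective protein cathepsin A, had 359 ± 18.6 and 373 ± 23.2 CPM units at 0 h and 24 h, SCPEP1 had 89.3 ± 5.38 and 102 ± 7.80, and PRCP, a lysosomal prolylcarboxypeptidase, had 77.0 ± 5.08 and 86.2 ± 2.56. Over the 3 lists 1 of 14 tested genes (7.14%) passed, against 4.25% of all genes, and 3 (21.4%) with the block, against 24.1%.

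**Figure D4:**
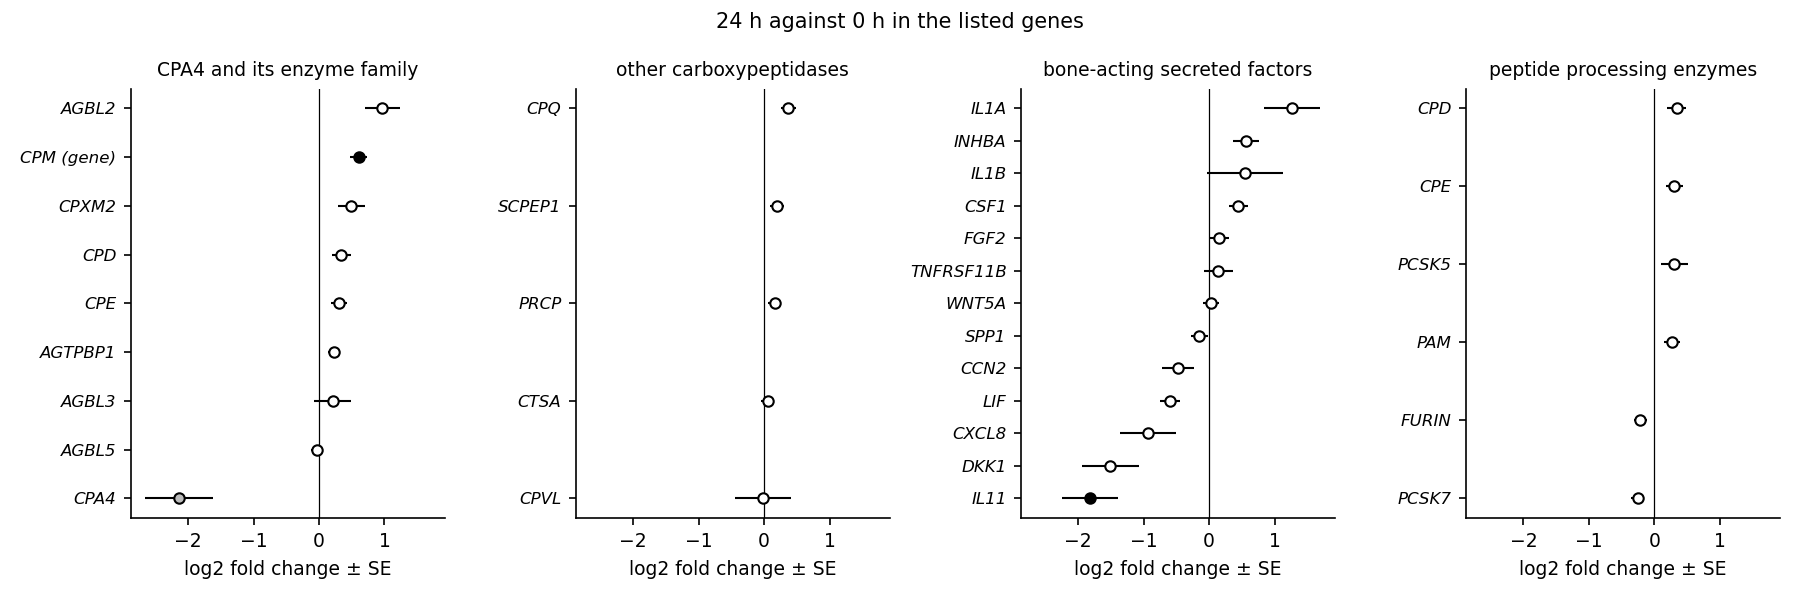
Log2 fold changes at 24 h against 0 h with standard errors (horizontal axes) for tested genes of 4 lists (vertical axes), the first of which is the M14 family. Filled points passed the edgeR test without the block (CPM, the gene, and IL11), open points did not, and grey marks CPA4, which was chosen for its fall and stands at -2.13 while 7 of the 8 other M14 genes lie above 0.

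No neighbour of either gene passed at 24 h against 0 h by edgeR, 4 had an unadjusted p under 0.05 (28.6% of those tested, against 26.4% of all genes), and DESeq2 called MRPS35 and ZC3HC1 as lower. Within 500 kb, 25 genes were in the table and 14 were tested, with a median log2 fold change of 0.01 and 7 of 14 above 0. Next to PTHLH, the nearest tested genes were KLHL42 at 155 kb (51.8 ± 4.57 CPM at 0 h, 58.3 ± 5.68 at 24 h, SD, n = 3) and CCDC91 at 161 kb (32.2 ± 0.702 and 30.8 ± 1.66 CPM). Next to CPA4 they were TMEM209 at 85.4 kb (66.3 ± 12.6 and 82.2 ± 4.61 CPM) and CEP41 at 69.6 kb (39.0 ± 3.63 and 40.7 ± 1.76 CPM). With the block PPFIBP1 and TMEM209 rose and MRPS35 and ZC3HC1 fell, 4 of 14 or 28.6%, near the 24.1% of all genes that passed so, with log2 fold changes without it between -0.42 and 0.39.

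**Figure D5:**
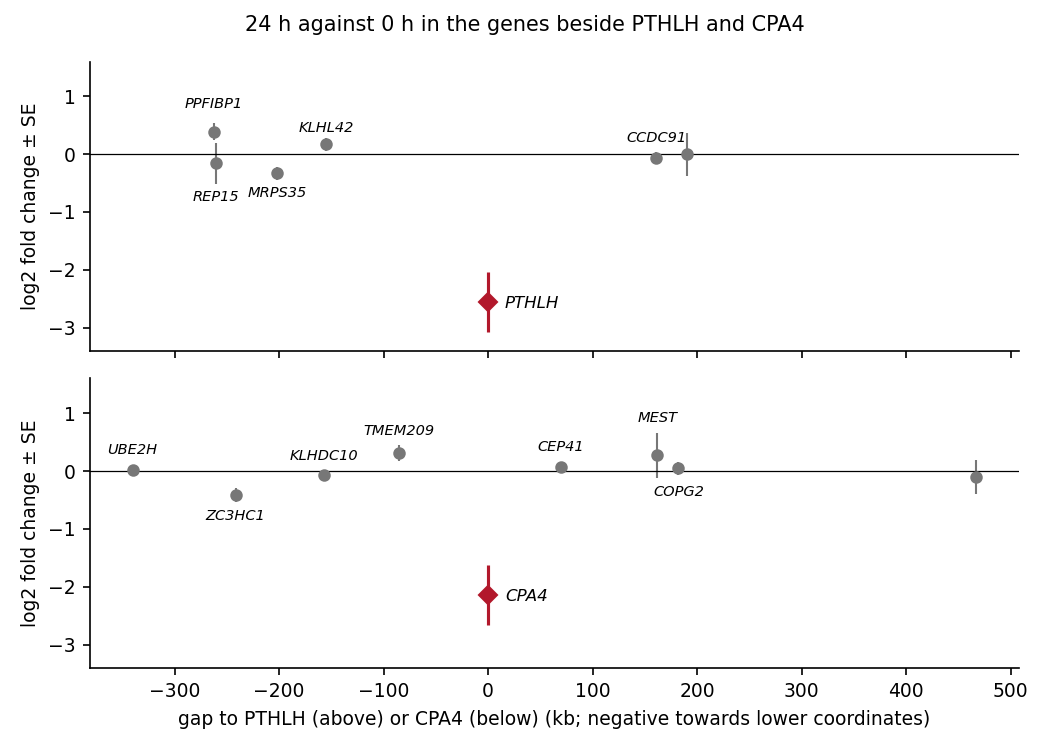
Log2 fold changes at 24 h against 0 h with standard errors (vertical axes) of the tested genes within 500 kb of PTHLH (upper) and CPA4 (lower), by gap in kb (horizontal axis). The neighbours lie between -0.42 and 0.39, and PTHLH and CPA4, drawn as diamonds at 0 kb, lie at -2.55 and -2.13.

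Markers of other cell types that moved with the fall are given here as measured values. The 2 cartilage markers, COL2A1 and ACAN, summed to 17.3 to 22.9 CPM at 0 h, 18.2 to 29.4 at 8 h and 34.8 to 41.2 at 24 h. ACAN passed (19.2 ± 3.18 to 35.6 ± 3.70 CPM, SD, n = 3, edgeR adjusted p = 0.0304), while COL2A1 did not (log2 fold change 0.54). The endothelial markers, of which 2 of 3 were in the table, summed to 0.308 to 0.613 CPM at 0 h and 1.04 to 1.70 at 24 h, with VWF up from 0.424 ± 0.131 to 1.28 ± 0.274 CPM (SD, n = 3, edgeR adjusted p = 0.0304) and PECAM1 at no more than 3 counts. Of the 9 tested glioma markers 2 (22.2%) passed, and 5 (55.6%) with the block. The 2 were S100B (130 ± 46.2 to 340 ± 53.6 CPM, edgeR adjusted p = 0.0460) and FABP7 (46.6 ± 3.18 to 111 ± 24.8 CPM, edgeR adjusted p = 0.0167), which rose. The 10 glioma markers together summed to 6330 to 8680 CPM at 0 h and 5496 to 6297 at 24 h, and 4 of the 9 tested had log2 fold changes below 0. With the block, and with DESeq2, OLIG2 also rose, and VIM (4903 ± 1197 to 3554 ± 363 CPM, SD, n = 3) and CD44 (999 ± 109.8 to 769 ± 56.6 CPM) fell, and opposite-strand genes overlap 24.4% of the exons of VIM. The part of these markers in the fall of PTHLH and CPA4 was not tested.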

How the data were processed

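RNA-seq counts of 9 libraries, 3 each of untreated LN229 cells at 0 h and of cells given formate for 8 h or 24 h, were analysed. The deposited table holds raw counts per Ensembl gene and library. Per the submitters' processing notes, bcl2fastq 2.20.0.422, STAR 2.7.4a and GRCh38 were used. The counting program, its strand setting and the annotation are not given in the sources used here. Symbols for 19733 of 23727 genes came from a table of Ensembl identifiers, and positions from GENCODE release 29, which held 98.0% of the genes. Promoter windows are RefSeq's on GRCh38.p14; both genes matched.

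Totals ran from 22222298 to 25848242 counts, and intervals on counts cover counting error only. Genes were filtered with filterByExpr, which left 15273, scaled with TMM, and fitted with edgeR 4.0.16 in R 4.3.3 (glmQLFit, glmQLFTest, two-sided) with 1 mean per group over all 9 libraries. P-values were adjusted by Benjamini-Hochberg over all tested genes at a threshold of 0.05. CPM values carry the TMM factors, and log2 CPM used a prior count of 2. The scripts were tested on simulated counts.

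PTHLH and CPA4, the gene lists and the rules were chosen with earlier results of these data known. Named were, of each list, every gene past the threshold at 24 h against 0 h, or else the 3 most abundant; the receptors and inhibitors in any case; the nearest tested neighbour on each side; and the 5 genes with the highest r to PTHLH or CPA4 among genes of at least 5 CPM. 1 gene of the lists is not reported here. CPD and CPE stand in both the processing and the M14 lists.

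Same-numbered libraries deviated together from their group means, with r across genes of 0.476, 0.432 and 0.414 between 0 h and 8 h, and of 0.367, 0.164 and 0.251 between 0 h and 24 h. The titles' numbers were therefore taken to pair these groups. Untreated replicate 3 and replicate 2 of 24 h had r of 0.270, above the same-numbered values of replicates 2 and 3. The pairing of 0 h with 24 h is therefore uncertain for these numbers, and so are the calls with the block that rest on it. Between differently numbered libraries of any 2 groups r ran from -0.440 to 0.270. Between 8 h and 24 h r was 0.423, 0.0367 and 0.404, which did not meet the criterion of 0.1 in every pair. Alternatives were the replicate block, RLE scaling, DESeq2 1.42.0, no filter, only the 2 groups compared, each library left out in turn, and only replicates 2 and 3.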

Additional observations from a re-analysis of the deposited data

Results flagged for a closer look

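Of 97 tested genes in the lists, cell type markers left out, 3 had a change from 0 h at 24 h that differed from their change at 8 h. Both changes share the untreated libraries, so this is the direct test of 24 h against 8 h by edgeR with Benjamini-Hochberg adjustment. That test passed 696 of all 15273 tested genes (4.56%), so the 3 of 97 do not exceed the share over all genes. Among the markers, VWF (adjusted p = 0.0332), S100B (0.0382) and FABP7 (0.0154) also passed this edgeR test. Each of these marker calls was lost without replicate 1 of 8 h or replicate 2 or 3 of 24 h. The difference was 0.67 on the log2 scale for carboxypeptidase M (gene symbol CPM; SE 0.13, adjusted p = 0.0244). It was -1.79 for IL11 (SE 0.43, adjusted p = 0.0408). It was -0.68 for LIF (SE 0.16, adjusted p = 0.0371), whose levels were 252, 243 and 335 CPM at 0 h in replicates 1, 2 and 3, 279, 262 and 332 at 8 h, and 214, 163 and 169 at 24 h. The libraries of 24 h lay below all those of 8 h for IL11 and LIF, as they did for 2468 of all tested genes (16.2%). They lay above them for carboxypeptidase M, and the share over all genes in that direction is not given here. These genes had passed the test on the same libraries, so the separation adds no support. None of the 3 differences passed without replicate 1 or 3 of 8 h or without replicate 2 or 3 of 24 h, where the adjusted p reached 0.142 for carboxypeptidase M, 0.199 for IL11 and 0.186 for LIF; LIF also did not pass without replicate 2 of 8 h. PTHLH and CPA4 were not put to this test, since their 24 h libraries chose them.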

How the results depend on the processing

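The largest shifts of the falls at 24 h against 0 h were 0.68 on the log2 scale for PTHLH (without untreated replicate 1) and 0.66 for CPA4 (without replicate 1 of 24 h), against pooled within-group SDs of log2 CPM of 0.74 and 0.88; against 8 h they were 0.56 and 0.66, with SDs of 0.67 and 0.92. The shifts of PTHLH were larger than the SD of its same-numbered changes (0.56 from 0 h and 0.51 from 8 h). With each library left out in turn they ran from -2.89 to -1.87 (PTHLH) and -2.79 to -1.71 (CPA4) on the log2 scale against 0 h, and from -2.96 to -2.07 and -2.91 to -1.69 against 8 h. At 8 h against 0 h the same range was -0.49 to 0.76 for PTHLH, negative without untreated replicate 2 (-0.25), untreated replicate 3 (-0.10) or replicate 1 of 8 h (-0.49). It was -0.45 to 0.56 for CPA4, negative without untreated replicate 2 (-0.11) or replicate 1 of 8 h (-0.45), and -0.013 with only replicates 2 and 3. No alternative brought either past the threshold at 8 h.

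Counts of calls moved more, and the cause was not tested. Against the 649 genes at 24 h against 0 h, the replicate block gave 3687, DESeq2 1656, only the 2 groups compared 124 and only replicates 2 and 3 2616; leaving out libraries gave 0 (without replicate 2 or 3 of 24 h) to 899. Dropping replicate 3 of 8 h gave 284, dropping untreated replicate 1 gave 356 and dropping untreated replicate 3 gave 418. At 24 h against 8 h, 696 became 3130 with the block, 1458, 1787 and 3072 in the same order, and 0 to 2545 with libraries left out (0 when replicate 1 of 8 h or replicate 2 or 3 of 24 h is dropped, 53 and 372 when replicate 3 or 2 of 8 h is, and 2545 when untreated replicate 1 is). At 8 h against 0 h the count was 0 throughout. The 2 PTHrP pathway genes became 23 with the block, 1 with RLE scaling, 7 with DESeq2, 5 with no filter, 0 with 2 groups and 18 with replicates 2 and 3, and 0 to 5 with libraries left out. The single metallocarboxypeptidase gene became 3 with the block, 2 with DESeq2, 0 with 2 groups and 3 with replicates 2 and 3, and 0 to 1 with libraries left out. The 0 neighbours became 4 with the block, 2 with DESeq2 and 2 with replicates 2 and 3, and stayed 0 with any library left out. At 24 h the libraries held 77 to 151 counts of PTHLH and 35 to 156 of CPA4, which limits the precision of the low values.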
